A study of Homo sapiens with 28 samples.

Results

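The effects of 2 drugs on gene expression were set against each other in JeKo-1, an established line of malignant B cells from mantle cell lymphoma. The ONC201 effect was the level after 24 h with ONC201 minus the level at 0 h, with 3 arrays in each group. The rapamycin effect was the level after 24 h with 10 nM rapamycin minus the level in the untreated group, JeKo-1_Control, also taken at 24 h, with 2 arrays in each group. These 10 arrays, of 28 in the series, were chosen by their labels, and the quantity described is the ONC201 effect minus the rapamycin effect, called the difference of effects. The labels give no ONC201 dose for these arrays. Drugs were dissolved in DMSO, and untreated cultures had DMSO alone, per the labels' protocols. No array is shared between the 2 effects. The ONC201 and 0 h arrays lay on one chip and the rapamycin and control arrays on another, so each effect lies within a chip. The ONC201 effect holds time in culture as well as drug, since its control was taken at 0 h. The labels number the arrays of a group without saying whether they came from separate cultures, so p-values measure the spread between arrays, which may be technical.

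Rapamycin binds FKBP12, and this complex inhibits mTORC1, the kinase complex that couples growth factors and amino acids to protein synthesis and glycolysis. ONC201 is an anticancer compound whose known target is CLPP, a protease of the mitochondrial matrix that it activates. Both bear on the transcription factor ATF4: stress kinases that phosphorylate the initiation factor eIF2 raise its translation, a route called the integrated stress response, and active mTORC1 is also known to raise it. ATF4 in turn drives genes for amino acid synthesis and uptake, for tRNA charging and for stress regulators such as DDIT3 and TRIB3.

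The line's label was set against marker genes. Of the 7 B-cell markers tested, 6 were detected on all 10 arrays (MS4A1, CD79A, CD79B, BLK, CD37 and POU2AF1), and so were the mantle cell lymphoma markers SOX11 and CD24. CCND1 and CD5, from the same marker list, were not among the genes that passed the detection filter, and neither was FCER2. Of the T-cell, myeloid and erythroid markers, 6 passed the detection filter and 0 were detected on all 10 arrays, and 0 epithelial or fibroblast markers passed it. Arrays detected 30.2% to 34.7% of the probes, with median signals of 47.5 to 67.2 units, and replicate arrays of a group correlated at 0.991 to 0.995 across probes.

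Across 9417 genes, each given by its brightest probe, the difference of effects was called for 2569 (27.3%), with 1339 higher (14.2%) and 1230 lower (13.1%) under ONC201 than under rapamycin. A call here means an adjusted p under 0.05 in limma's moderated test with Benjamini-Hochberg adjustment over all 17214 probes tested. ONC201 changed 3288 genes (34.9%), of which 1691 rose (18.0%) and 1597 fell (17.0%). Rapamycin changed 2517 genes (26.7%), of which 1235 rose (13.1%) and 1282 fell (13.6%). Genes of the difference that were called and at least 2-fold apart numbered 418 higher and 183 lower. By probe, the difference was called for 4104 of 17214 (23.8%), the ONC201 effect for 5393 (31.3%) and the rapamycin effect for 4117 (23.9%). The rapamycin count was 2523 without untreated replicate 1 and 2677 without rapamycin replicate 1. The median difference of effects over all genes was -0.01 (log2), and the median standard error was 0.16.

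Both drugs changed 1151 genes, which is 35.0% of the genes ONC201 changed and 45.7% of those rapamycin changed. Of these, 616 (53.5%) moved the same way, with 314 higher under both drugs (3.33% of all genes) and 302 lower under both (3.21%). By probe the shared changes numbered 978, and 605 without untreated replicate 1 or 619 without rapamycin replicate 1. With the untreated 24 h arrays as control for both drugs, which both effects then share, 1872 probes moved the same way and 713 opposite ways, against 978 and 813 with the 0 h control for ONC201. The other 535 genes (46.5%) moved opposite ways. Under ONC201 343 of them rose and under rapamycin they fell (3.64%), while 192 fell under ONC201 and rose under rapamycin (2.04%). Changes of one drug, where the other drug's effect was not called and the difference was, came to 492 genes higher (5.22%) and 485 lower (5.15%) with ONC201, and to 432 higher (4.59%) and 387 lower (4.11%) with rapamycin. Across the 17214 probes the effects correlated at a Pearson r of -0.03 and a Spearman rho of 0.08, given as a description since probes are not independent.

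**Figure D1:**
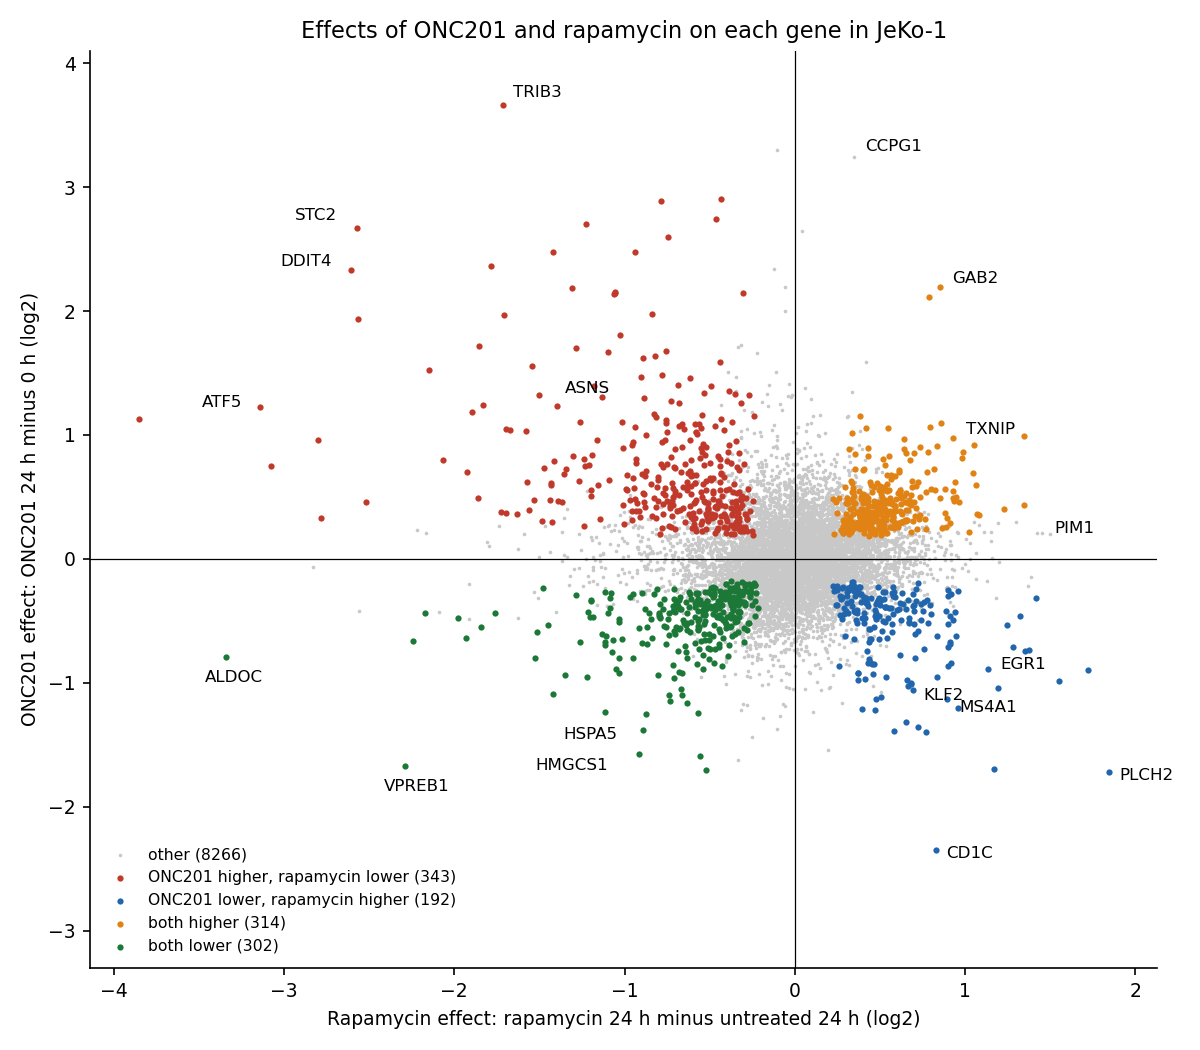
Rapamycin effect (horizontal axis, log2) against ONC201 effect (vertical axis, log2), with 1 point per gene for 9417 genes and colours for the genes that both drugs changed. The upper left holds the 343 genes higher with ONC201 and lower with rapamycin, among them TRIB3, STC2, DDIT4 and ATF5, and reaches farther from the centre than the lower right, where PLCH2 and CD1C lie.

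Regulators of the integrated stress response were among the genes farthest apart between the drugs. Of the 20 members measured in a list of this response and of ATF4 targets, ONC201 raised 20 and rapamycin lowered 17, and the difference of effects was higher for 18 and lower for 0. Of all genes, ONC201 raised 18.0% and rapamycin lowered 13.6%, and the difference was higher for 14.2% and lower for 13.1%. The list's median was 1.28 (log2) for the ONC201 effect, -1.14 for the rapamycin effect and 2.86 for the difference, beside medians within 0.014 of 0 over all genes. The 2 members that did not differ were TXNIP and KLHL24, which rose with both drugs.

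TRIB3, a pseudokinase that binds AKT and ATF4, had the largest difference of all genes detected in the 4 groups. Its normalized log2 signal was 12.31, 12.36 and 12.31 with ONC201, against 8.60, 8.81 and 8.59 at 0 h. It was 8.01 and 7.93 with rapamycin, against 9.73 and 9.64 in untreated cells at 24 h. The 4 groups did not overlap, with ONC201 highest and rapamycin lowest. TRIB3 was 12.6-fold higher with ONC201 than at 0 h and 3.29-fold lower with rapamycin than in its control, a difference of effects of 5.38 ± 0.12 (log2 ± SE, adjusted p = 7.08e-14, limma).

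DDIT4, also called REDD1, is a brake on mTORC1. Its signal was 10.60, 10.62 and 10.44 with ONC201 and 8.20, 8.18 and 8.29 at 0 h. It was 7.61 and 7.39 with rapamycin and 10.17 and 10.04 in untreated cells at 24 h. The untreated cells at 24 h thus lay close under the ONC201 arrays, and far above the 0 h arrays. The ONC201 effect was 2.33 ± 0.11, the rapamycin effect -2.61 ± 0.13 and the difference 4.94 ± 0.17 (log2 ± SE, adjusted p = 7.96e-12, limma). SESN2, a sestrin that restrains mTORC1 when leucine is short, was detected on all 3 ONC201 arrays and both untreated 24 h arrays, and on none at 0 h or with rapamycin. It was at least 3.47-fold higher with ONC201 than at 0 h, and at least 1.37-fold lower with rapamycin than in its control. For "at least" folds of this kind, the dim group's mean was taken per array as the higher of the probe's own signal and the lowest signal of any detected probe.

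ATF5, a transcription factor of the mitochondrial stress response, had the largest fall with rapamycin among the stress factors. Its signal was 12.76, 12.88 and 12.68 with ONC201 and 11.52, 11.48 and 11.65 at 0 h. It was 9.21 and 9.20 with rapamycin and 12.41 and 12.29 in untreated cells at 24 h. The rapamycin arrays stood more than 2 log2 units below every other array. The ONC201 effect was a 2.33-fold rise and the rapamycin effect an 8.83-fold fall, and the difference was 4.37 ± 0.13 (log2 ± SE, adjusted p = 2.07e-12, limma). ATF4 itself, at the level of its transcript, moved the same ways by less, at 0.52 ± 0.06 with ONC201 and -0.76 ± 0.07 with rapamycin (log2 ± SE, adjusted p of the difference = 1.07e-07, limma). Of the other 2 tested probes of ATF4, 1 was called the same way in the difference (1.75) and 1 the opposite way (-1.04).

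DDIT3, which encodes CHOP, a factor tied to cell death under lasting stress, had signals of 11.16, 11.18 and 11.16 with ONC201, against 9.07, 8.87 and 9.02 at 0 h. With rapamycin it had 7.84 and 7.58, against 8.94 and 9.09 in untreated cells at 24 h. Here the 2 control groups lay at the same height, and the drugs departed from them in opposite directions. The difference was 3.49 ± 0.15 (log2 ± SE, adjusted p = 1.29e-10, limma). ATF3, another stress factor, rose with ONC201 by 1.94 ± 0.14 and was not detected with rapamycin, at least 4.76-fold below its control. CHAC1, an enzyme that breaks down glutathione, was undetected at 0 h and with rapamycin, at least 1.97-fold lower than with ONC201 and at least 2.37-fold lower than in the 24 h control.

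STC2, a secreted glycoprotein induced by stress, reached a difference of 5.24 ± 0.15 (log2 ± SE, adjusted p = 1.04e-12, limma), with signals of 8.68 to 8.75 in ONC201 arrays and 5.94 to 6.28 at 0 h, against 5.41 and 5.56 with rapamycin and 8.04 and 8.07 in its control. PPP1R15A, the phosphatase subunit GADD34 that restores eIF2, rose with ONC201 by 1.33 ± 0.09 and fell with rapamycin by 0.35. VEGFA, the angiogenic factor that ATF4 and hypoxia both induce, rose with ONC201 by 1.18 ± 0.08 and was at least 3.32-fold lower with rapamycin than in its control. NIBAN1, a translation and stress regulator, and SYTL1, a synaptotagmin-like protein, were further large differences, at 3.34 ± 0.15 and 3.41 ± 0.26.

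**Figure D2:**
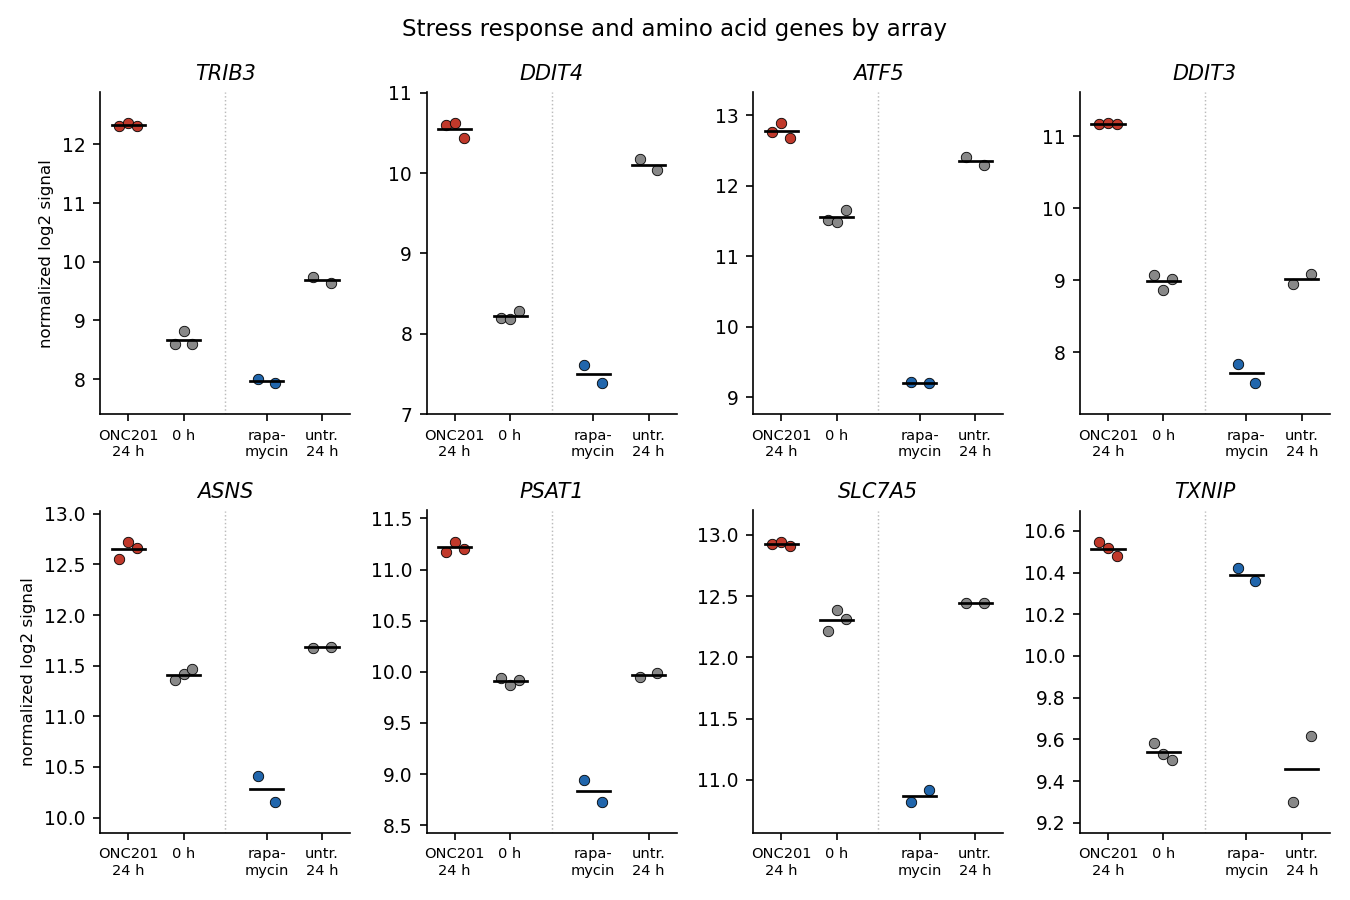
Normalized log2 signal (vertical axes, each on its own scale) of 8 genes on each of the 10 arrays, by group, with bars at group means and a dotted line between the chips. In the 7 panels from TRIB3 to SLC7A5 the ONC201 arrays are highest and the rapamycin arrays lowest of all, while TXNIP is higher with both drugs than in either control.

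Most enzymes that make amino acids followed the same opposite course. Of 15 measured enzymes of serine, glycine, asparagine, proline and one-carbon metabolism, 12 were higher and 1 was lower in the difference of effects. Over all genes these shares were 14.2% and 13.1%. The list's median was 1.45, and 11 members rose with ONC201 and fell with rapamycin (3.64% of all genes did). This list shares ASNS and CTH with the stress list. ASNS, asparagine synthetase, had signals of 12.55, 12.72 and 12.66 with ONC201 and 11.36, 11.41 and 11.46 at 0 h. It had 10.41 and 10.16 with rapamycin and 11.68 and 11.69 in untreated cells at 24 h. Both controls lay between the drugs, with no overlap, and the difference was 2.63 ± 0.13 (log2 ± SE, adjusted p = 8.02e-10, limma).

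PHGDH and PSAT1 catalyse the opening steps of serine synthesis. PHGDH was among the brightest probes, at 14.07 to 14.10 with ONC201 and 13.27 to 13.47 at 0 h, and at 11.94 and 11.99 with rapamycin and 13.40 and 13.49 in untreated cells at 24 h. Its fall with rapamycin (2.78-fold) was greater than its rise with ONC201 (1.66-fold). PSAT1 rose by 1.31 ± 0.07 and fell by 1.13, about the same step up and down. ASS1, argininosuccinate synthetase of arginine synthesis, had the largest difference of the list at 4.15 ± 0.15 (adjusted p = 1.07e-11, limma), 5.14-fold higher with ONC201 and 3.45-fold lower with rapamycin. PCK2, mitochondrial phosphoenolpyruvate carboxykinase, followed at 3.20 ± 0.11, and MTHFD2 of the mitochondrial folate path at 1.70 ± 0.11. SHMT1 and MTHFD1, the cytosolic folate enzymes of the list, were not called in the difference, and without rapamycin replicate 1 MTHFD1 was called at -0.40. The member lower in the difference was ALDH18A1, which opens proline synthesis, at -0.32 with ONC201 and 0.00 with rapamycin, a difference that lost its call without any 1 of 6 arrays (untreated replicate 1 or 2, rapamycin replicate 1, ONC201 replicate 1 or 2, or 0 h replicate 3), at -0.27 to -0.32.

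Cytosolic tRNA synthetases, which load amino acids onto tRNA, split within the family. Of 17 measured, 11 were higher in the difference and 1 was lower, where 14.2% and 13.1% of all genes were. With ONC201 7 rose that fell with rapamycin (3.64% of all genes did). The lower member was FARSA, at -0.35, and it lost its call without replicate 2 of any of the 4 groups (-0.27 to -0.31). The difference was 2.45 ± 0.12 for WARS1 (tryptophan), 2.00 ± 0.11 for SARS1 (serine), 1.74 ± 0.14 for GARS1 (glycine) and 1.59 ± 0.10 for MARS1 (methionine). WARS1 was nearly all an ONC201 change, with signals of 11.87, 11.90 and 11.89 with ONC201, against 9.84, 9.72 and 9.65 at 0 h, and 9.16 and 9.15 with rapamycin, against 9.39 and 9.53 in its control. HARS1, KARS1, QARS1, RARS1 and VARS1 were not called in the difference.

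Amino acid transporters were a mixed list, with 8 of 14 higher in the difference and 1 lower (14.2% and 13.1% of all genes were). SLC7A5 and SLC3A2 are the light and heavy chains of LAT1, the carrier of large neutral amino acids. SLC7A5 had signals of 12.93, 12.94 and 12.91 with ONC201 and 12.22, 12.39 and 12.31 at 0 h, and 10.82 and 10.92 with rapamycin and 12.44 on both arrays of untreated cells at 24 h. Its rapamycin fall (1.57) was greater than its ONC201 rise (0.62 ± 0.07), and the difference was 2.19 ± 0.11 (adjusted p = 4.77e-10, limma). SLC3A2 changed by 1.00 with ONC201 and -0.88 with rapamycin. The glycine transporter SLC6A9 was at least 3.67-fold higher with ONC201 than at 0 h, and was undetected on all rapamycin and untreated arrays. Of 37 mTORC1 pathway components and brakes, 7 were higher and 5 lower in the difference, shares near those over all genes (14.2% and 13.1%). RRAGD, a Rag GTPase, and EIF4EBP1, the translation repressor that mTORC1 inactivates, rose with ONC201 and fell with rapamycin, with differences of 1.60 ± 0.16 and 1.54 ± 0.18. The kinase gene MTOR itself and STK11, which encodes LKB1, fell with ONC201 and rose with rapamycin, with differences of -0.75 ± 0.13 and -1.30 ± 0.24.

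ATF4 binds with C/EBP partners to a composite element, the C/EBP-ATF response element, written TGATGNAAN here, and its match on either strand was looked up in RefSeq promoter windows (GRCh38.p14, 250 bases before to 50 after a gene's start). The windows below are shown because ASNS, ATF3, CHAC1 and AARS1 rose with ONC201 and fell with rapamycin, and each holds 1 match, in capitals, read 5′ to 3′ on the gene's strand. ASNS is at chr7:97872439-97872508 on the minus strand, with its match 68 bases before the start, and ATF3 at chr1:212565187-212565256 on the plus strand, 191 bases before. CHAC1 is at chr15:40953231-40953300 on the plus strand and AARS1, the alanine synthetase, at chr16:70289657-70289726 on the minus strand, with matches 210 and 188 bases before the start that read TGATGNAAN on the other strand. AARS1 was chosen with its values known.
ASNS: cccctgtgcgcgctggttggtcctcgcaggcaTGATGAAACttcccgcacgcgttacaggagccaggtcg
ATF3: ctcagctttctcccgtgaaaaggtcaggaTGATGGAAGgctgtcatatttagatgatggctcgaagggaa
CHAC1: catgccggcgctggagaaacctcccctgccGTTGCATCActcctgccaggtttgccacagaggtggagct
AARS1: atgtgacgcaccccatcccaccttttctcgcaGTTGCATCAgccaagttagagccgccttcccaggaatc

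A match was found in 1002 of all 27305 windows (3.67%) and in 127 of the 7651 windows of genes tested here (1.66%). Among the genes higher with ONC201 and lower with rapamycin it was found in 17 of 268 (6.34%), and among those lower with ONC201 and higher with rapamycin in 2 of 151 (1.32%). It was found in 5 of 14 windows of the tRNA synthetases (35.7%), 3 of 12 of the amino acid enzymes (25.0%) and 4 of 19 of the stress list (21.1%). These shares are a description of the letters in these windows.

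The ID proteins inhibit basic helix-loop-helix factors. ID1 was detected on the ONC201 and untreated 24 h arrays alone, at least 2.88-fold above 0 h with ONC201 and at least 2.25-fold below its control with rapamycin. ID3 had signals of 11.64, 11.49 and 11.55 with ONC201, against 11.08, 11.20 and 11.32 at 0 h, and 9.27 and 9.60 with rapamycin, against 11.03 and 11.10 in its control. The rapamycin arrays stood apart from the rest, and the difference was 1.99 ± 0.14 (adjusted p = 3.9e-08, limma). ID2 fell with rapamycin by 1.27, and its rise with ONC201 was not called (0.20 ± 0.10).

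Of 19 measured genes of the BCL2 family and death receptors, 6 were higher in the difference and 1 was lower (14.2% and 13.1% of all genes were). With the untreated 24 h control 6 were higher and 7 lower, where 29.3% and 21.7% of all genes were. With the 0 h control for ONC201, 3 were called higher with ONC201 and lower with rapamycin, 1 the reverse and 3 higher with both. These shares of all genes were 3.64%, 2.04% and 3.33%. PMAIP1, which encodes NOXA, an antagonist of MCL1, changed by 0.75 ± 0.16 with ONC201 and -1.23 ± 0.20 with rapamycin. TNFRSF10B, the TRAIL receptor DR5, had signals of 9.06, 9.34 and 9.24 with ONC201 and 8.46, 8.49 and 8.45 at 0 h, against 8.01 and 8.11 with rapamycin and 8.42 and 8.58 in its control. The pro-death BMF moved the same ways (difference 1.40 ± 0.21). BIK, another pro-death member, was the exception, 1.38 ± 0.17 higher with rapamycin than in its control. It was undetected on the ONC201 and 0 h arrays, so its ONC201 effect compares signals below detection and shows no movement.

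Of 20 measured glycolysis genes, rapamycin lowered 17 and raised 0, ONC201 lowered 11 and raised 3, and 10 fell with both. Over all genes, rapamycin lowered 13.6% and raised 13.1%, ONC201 lowered 17.0% and raised 18.0%, and 3.21% fell with both. The glycolysis list's median was -0.25 for the ONC201 effect and -0.80 for the rapamycin effect. Its difference was higher for 11 members, lower for 0 and not called for 9, where 14.2% of all genes were higher and 13.1% lower. ALDOC, a brain and hypoxia-linked aldolase, had signals of 8.47, 8.40 and 8.16 with ONC201 and 9.19, 9.17 and 9.06 at 0 h. It had 7.35 and 7.58 with rapamycin and 10.79 and 10.82 in untreated cells at 24 h. It fell 1.74-fold with ONC201 and 10.1-fold with rapamycin, a difference of 2.55 ± 0.17 (log2 ± SE, adjusted p = 2.5e-08, limma). TPI1, triosephosphate isomerase, fell by 0.24 and by 1.48, while the falls of LDHA and PGAM1 were not called different between the drugs. The difference of LDHA was 0.32, was called at 0.36 without 0 h replicate 3, and was called for a second probe of this gene at 0.49. HK2, hexokinase 2, fell with rapamycin by 1.15 and stayed at -0.02 ± 0.10 with ONC201, while the difference of another HK2 probe was not called (0.54). PFKFB4, a regulator of fructose 2,6-bisphosphate, was at 9.02 and 9.11 in untreated cells at 24 h and undetected with rapamycin, at least 13.5-fold lower. With ONC201 it was detected on 2 of 3 arrays, at 6.53, 6.67 and 5.40, and at 0 h on none.

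Of 12 hypoxia-inducible genes, 9 rose with ONC201 and 0 fell, while 8 fell with rapamycin and 2 rose. Of all genes, 18.0% rose and 17.0% fell with ONC201, and 13.6% fell and 13.1% rose with rapamycin. Against the untreated 24 h arrays the list's ONC201 counts turned, to 3 higher and 6 lower, where 29.6% and 21.9% of all genes were. The list's median was then -0.24, against 0.44 with the 0 h control. P4HA1, a collagen prolyl hydroxylase, had signals of 7.45, 7.62 and 7.45 with ONC201 and 7.28, 6.82 and 6.94 at 0 h, against 7.18 and 7.03 with rapamycin and 8.91 and 9.02 in its control. BNIP3, a mitophagy receptor, changed by 0.31 ± 0.08 and -1.49 ± 0.10. In both genes the untreated cells at 24 h lay above all 8 other arrays, the ONC201 arrays included. Over the list the untreated 24 h level exceeded the 0 h level by a median of 0.66, and this difference lies across the chips, so that time in culture and chip cannot be told apart.

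**Figure D3:**
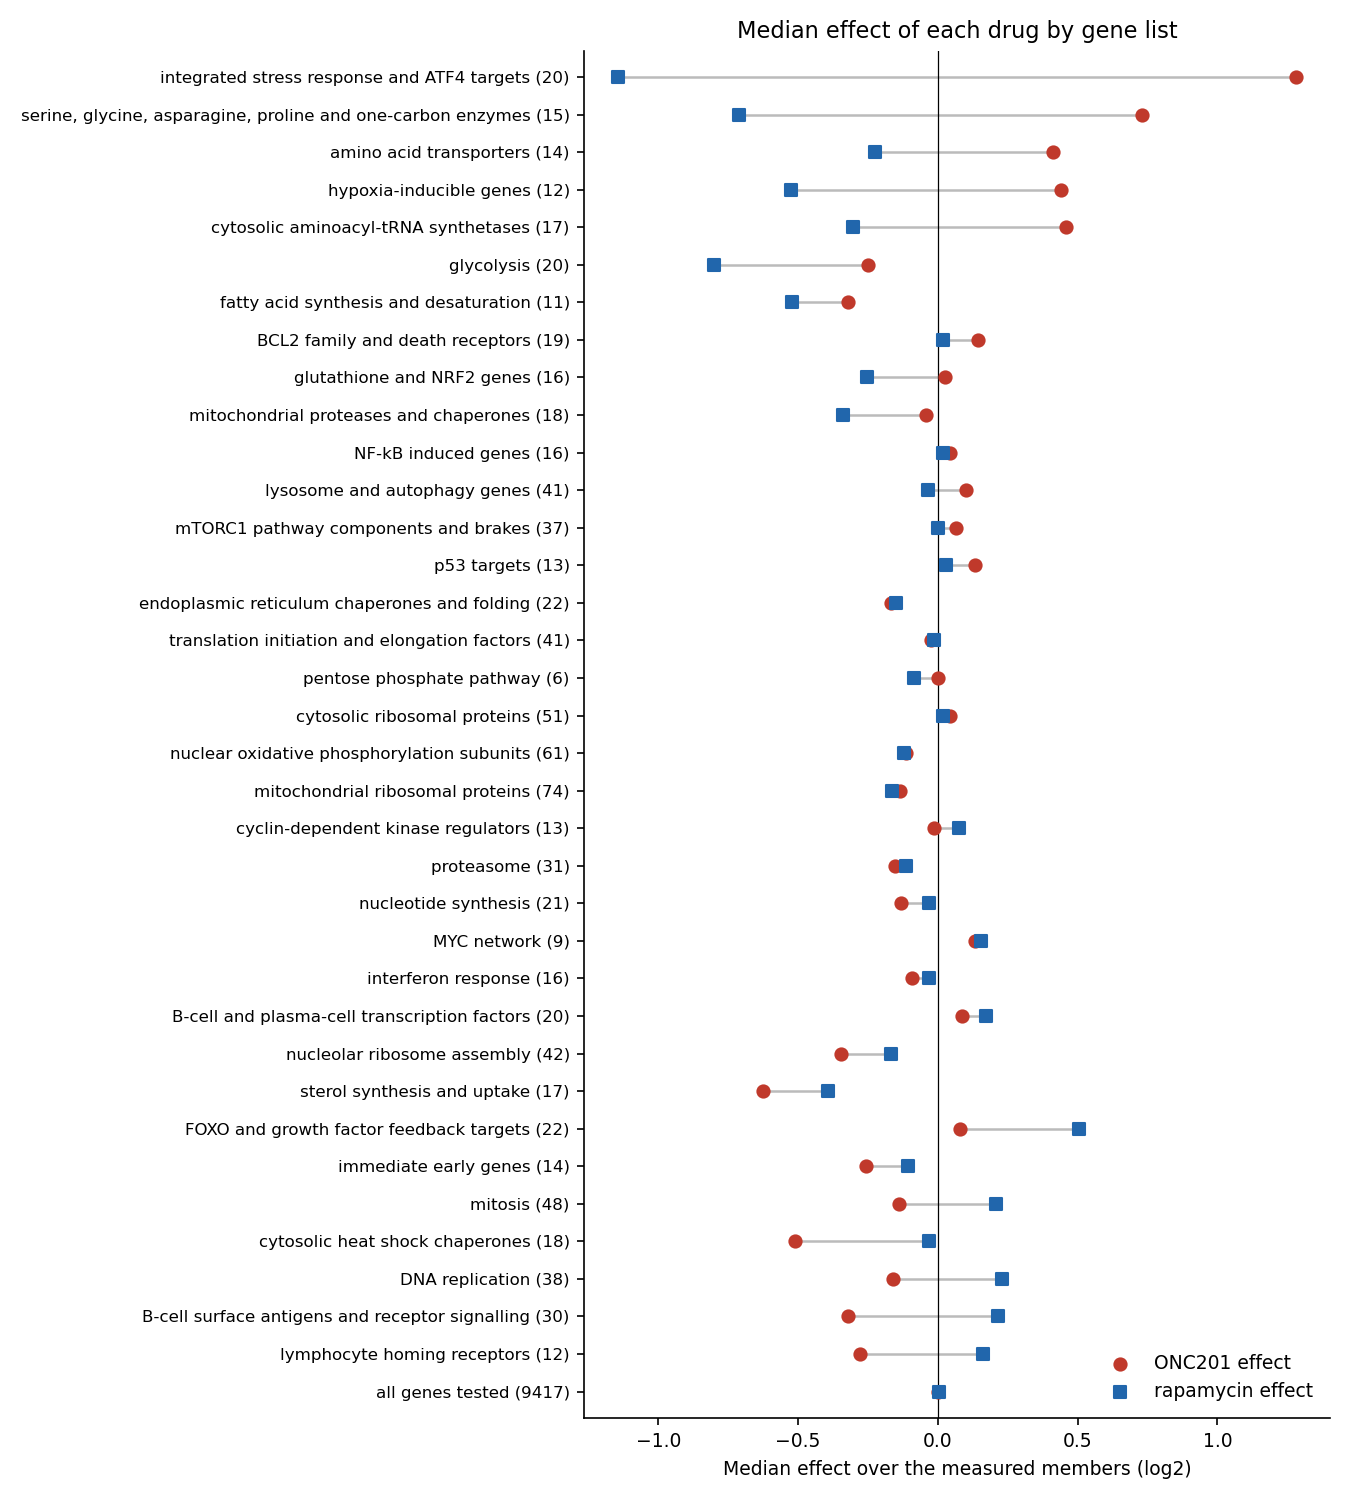
Median effect of each drug (horizontal axis, log2) over the measured members of each gene list, with the number of members in brackets and lists ordered by the median difference of effects. The stress list spans from -1.14 with rapamycin to 1.28 with ONC201, glycolysis and sterol synthesis lie left of 0 for both drugs, and all genes sit at 0.

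On the opposite side, many B-cell genes were lower with ONC201 and higher with rapamycin. In bulk RNA, fewer cells of a kind and less RNA per cell cannot be told apart. Of 30 measured B-cell surface antigens and receptor signalling genes, 18 were lower in the difference (13.1% of all genes were) and 3 were higher (14.2%). ONC201 lowered 17, rapamycin raised 14, and 9 did both, where these shares of all genes were 17.0%, 13.1% and 2.04%. MS4A1, the CD20 antigen targeted by rituximab, had signals of 7.18, 7.10 and 7.24 with ONC201 and 8.55, 8.09 and 8.28 at 0 h. It had 8.46 and 8.43 with rapamycin and 7.64 and 7.47 in untreated cells at 24 h. The ONC201 arrays were the lowest of the 10, and the rapamycin arrays overlapped the 0 h arrays. The difference was -2.03 ± 0.22 (log2 ± SE, adjusted p = 4.87e-06, limma). A second MS4A1 probe rose with rapamycin by 1.00 and had an ONC201 effect of -0.05.

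CD79A, a signalling chain of the B-cell receptor, was bright and moved by less, with signals of 11.34, 11.25 and 11.31 with ONC201 and 11.90, 12.01 and 11.94 at 0 h, against 12.00 and 11.91 with rapamycin and 11.46 and 11.47 in its control. Its difference was -1.14 ± 0.09 (adjusted p = 2.59e-07, limma). CD1C, a lipid antigen-presenting molecule, was undetected with ONC201, at least 2.61-fold below 0 h, and rose with rapamycin by 0.83 ± 0.15. CD37, a tetraspanin, changed by -0.50 and 0.74, and CD52 by -0.81 and 0.44. The exceptions were CD38, an ectoenzyme, which rose with ONC201 and fell with rapamycin (difference 1.32 ± 0.14), TNFRSF17, which encodes BCMA, and VPREB1, a surrogate light chain that fell with both drugs. With the untreated 24 h control the difference of CD38 was 0.03 and not called. The difference of VPREB1, 0.61, was 0.03 and not called without background correction, and lost its call without any array except untreated replicate 2, ONC201 replicate 2 and 0 h replicate 2 (0.49 to 0.68). POU2F2, which encodes the B-cell factor OCT2, fell with ONC201 by 1.11 and rose with rapamycin by 0.50 ± 0.14.

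Other genes were farther in this direction. PLCH2, a phospholipase C, had the largest negative difference, with signals of 6.16, 6.48 and 6.59 with ONC201 and 7.88, 8.40 and 8.10 at 0 h, against 8.89 and 8.88 with rapamycin and 7.002 and 7.075 in its control. The 4 groups did not overlap, with ONC201 lowest and rapamycin highest, and the difference was -3.56 ± 0.25 (log2 ± SE, adjusted p = 5.38e-08, limma). DERL3, a factor of endoplasmic reticulum degradation, followed at -2.62 ± 0.22, and RFTN1, a raft protein of the B-cell receptor, at -2.54 ± 0.15. ELL3, an elongation factor of B cells, was at -2.24 ± 0.16. EGR1, an immediate early factor of growth signalling, had 6.86, 6.89 and 7.22 with ONC201 and 7.83, 7.79 and 8.03 at 0 h, against 9.27 and 9.32 with rapamycin and 8.17 and 8.14 in its control. It fell 1.86-fold with ONC201 and rose 2.20-fold with rapamycin. SPRY2, a feedback inhibitor of the same signalling, had the opposite sign, as it fell with rapamycin by 1.05 and its ONC201 effect was not called.

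Of 38 replication genes measured, 19 were lower in the difference (13.1% of all genes were) and 2 higher, 17 fell with ONC201 and 12 rose with rapamycin. Of 48 mitosis genes, 21 were lower and 1 higher, 17 fell with ONC201 and 15 rose with rapamycin. Of all genes, 14.2% were higher in the difference, 17.0% fell with ONC201 and 13.1% rose with rapamycin. Against the untreated 24 h arrays, ONC201 raised 15 and lowered 10 of the mitosis genes, and raised 6 and lowered 12 of the replication genes. Against this control it raised 29.6% and lowered 21.9% of all genes, shares near those of the mitosis genes. The effects were small beside those of the stress genes, with median differences of -0.42 and -0.38. MCM5, a subunit of the replicative helicase, had signals of 9.87, 9.82 and 9.93 with ONC201 and 10.17, 10.20 and 10.15 at 0 h, against 10.68 and 10.77 with rapamycin and 9.82 and 9.83 in its control. MKI67, the Ki-67 antigen, had 7.13, 7.05 and 7.20 with ONC201 and 7.81, 7.56 and 7.75 at 0 h, against 7.38 and 7.40 with rapamycin and 6.81 and 6.94 in its control. For both genes the ONC201 arrays were low beside 0 h and lay at or above the untreated cells at 24 h. RRM2, the inducible subunit of ribonucleotide reductase, fell with ONC201 by 1.16, below all other arrays, and its rapamycin effect was not called (0.28 ± 0.21).

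Cytosolic heat shock chaperones had 11 of 18 lower in the difference and 1 higher, where 13.1% and 14.2% of all genes were. HSPA8, the constitutive HSC70, had signals of 12.26, 12.47 and 12.48 with ONC201 and 13.60, 13.42 and 13.58 at 0 h, against 12.92 and 12.83 with rapamycin and 12.33 and 12.47 in its control. The untreated cells at 24 h had the same level as the ONC201 arrays, about 1 log2 unit below 0 h. HSPH1 (difference -1.60 ± 0.12) and the inducible HSPA1B (-1.35 ± 0.14) followed. BAG3, a co-chaperone, was the member higher in the difference: it fell with rapamycin by 1.19, and its change with ONC201 was not called.

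**Figure D4:**
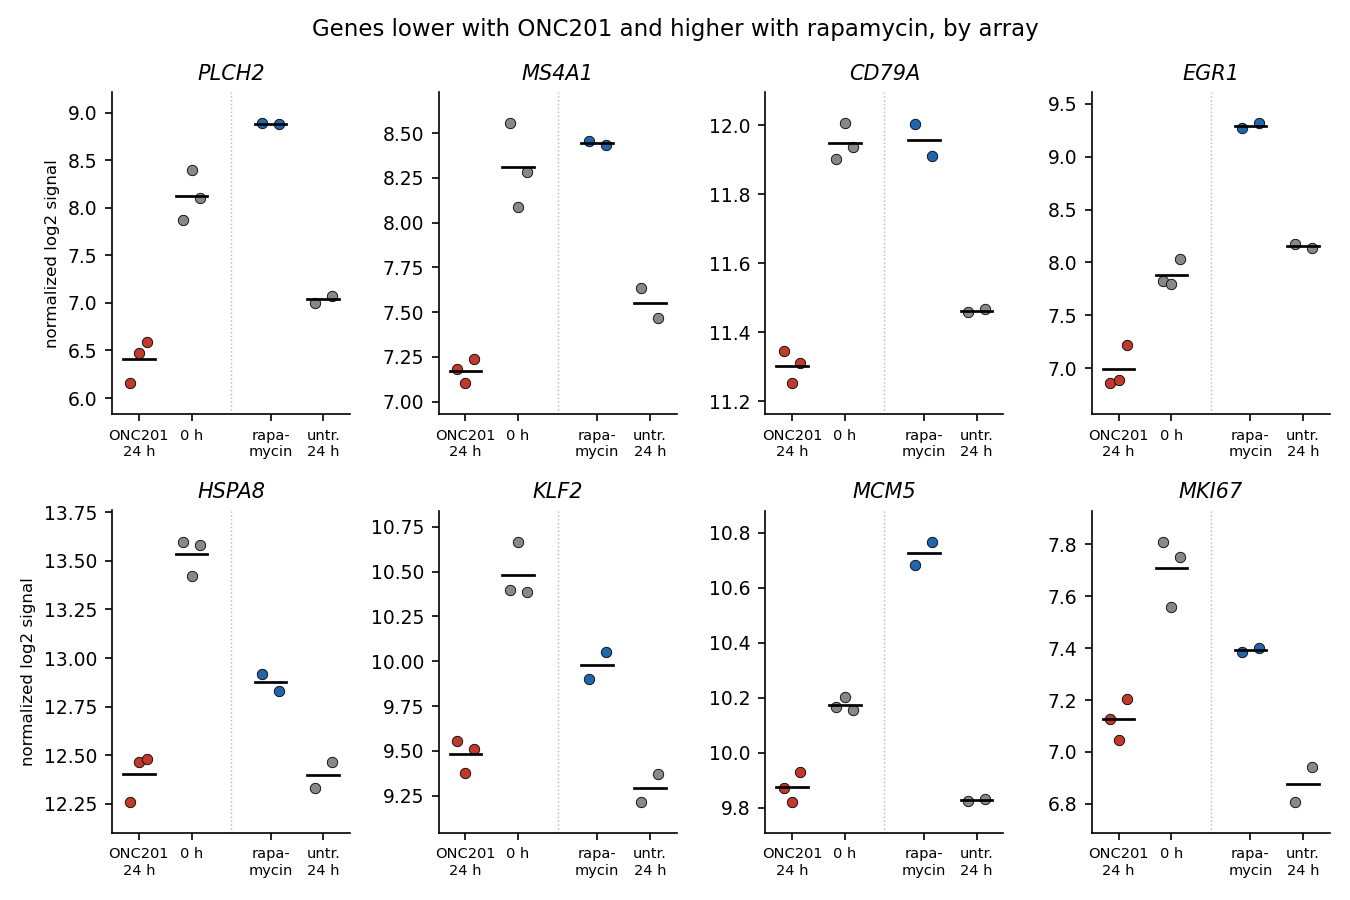
Normalized log2 signal (vertical axes, each on its own scale) of 8 genes that fell with ONC201 and rose with rapamycin, on each of the 10 arrays, with bars at group means and a dotted line between the chips. For PLCH2, MS4A1, CD79A and EGR1 the ONC201 arrays lie below the untreated 24 h arrays too, and for HSPA8, KLF2, MCM5 and MKI67 they overlap them or lie above them.

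FOXO factors are released when growth factor signalling falls. Of 22 measured FOXO and growth factor feedback genes, rapamycin raised 12 and lowered 1, ONC201 raised 7 and lowered 2, and 3 rose with both, TXNIP, IRS2 and CDKN1B. Of all genes, rapamycin raised 13.1% and lowered 13.6%, ONC201 raised 18.0% and lowered 17.0%, and 3.33% rose with both. Against the untreated 24 h arrays, ONC201 raised 12 and lowered 4 of the list, where it raised 29.6% and lowered 21.9% of all genes. The list's median difference was then -0.06, against -0.31 with the 0 h control. KLF2, a quiescence factor of lymphocytes, had signals of 9.56, 9.37 and 9.51 with ONC201 and 10.39, 10.67 and 10.38 at 0 h, against 9.90 and 10.05 with rapamycin and 9.22 and 9.37 in its control. It fell with ONC201 by 1.00 and rose with rapamycin by 0.68 ± 0.12. Its targets and companions in lymphocyte homing, S1PR1 and CCR7, rose with rapamycin by 0.81 ± 0.19 and 0.89, and their ONC201 effects were not called. FOXO1 rose with rapamycin by 0.64 ± 0.10 and stayed at -0.07 ± 0.08 with ONC201, while FOXO3 and FOXO4 rose with ONC201 by 0.60 and 0.42 and their rapamycin effects of 0.28 and 0.31 were not called.

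Genes that rose with both drugs included regulators of growth signalling and of cell size. TXNIP, an inhibitor of glucose uptake, had signals of 10.55, 10.52 and 10.48 with ONC201 and 9.58, 9.53 and 9.50 at 0 h, against 10.42 and 10.36 with rapamycin and 9.30 and 9.62 in its control. The drug arrays lay above both controls, and the effects of 0.98 ± 0.08 and 0.93 ± 0.10 differed by 0.05 ± 0.13 (adjusted p = 0.849, limma). IRS2, the insulin receptor substrate, rose by 0.86 ± 0.07 and 0.70 ± 0.08. The Polycomb protein CBX7, the cell cycle repressor HBP1 and the chaperone DNAJB9 also rose with both, and none of these was called in the difference. GAB2, a signalling adaptor, and FBXO32, a ubiquitin ligase of muscle atrophy, rose with both and more with ONC201, with differences of 1.34 ± 0.16 and 1.33 ± 0.18. Of the 314 genes higher under both drugs, 31 were called in the difference, 9 higher and 22 lower.

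Genes that fell with both drugs included the sterol pathway. Of 17 measured sterol synthesis and uptake genes, ONC201 lowered 12 and rapamycin 9, with 7 in common, and 0 rose with either. Of all genes, ONC201 lowered 17.0%, rapamycin 13.6% and both 3.21%, while 18.0% rose with ONC201 and 13.1% with rapamycin. HMGCS1, the synthase that opens the mevalonate path, had signals of 8.98, 9.08 and 9.19 with ONC201 and 10.66, 10.63 and 10.67 at 0 h, against 10.00 and 9.84 with rapamycin and 10.79 and 10.87 in its control. The controls lay at the same height, and the fall was 2.97-fold with ONC201 and 1.88-fold with rapamycin, a difference of -0.66 ± 0.12 (log2 ± SE, adjusted p = 0.000979, limma). MSMO1, a sterol oxidase, fell by 0.92 and 1.03, which were not called different (0.11 ± 0.16). MVK, mevalonate kinase, fell with ONC201 by 1.04 and its rapamycin effect was -0.04 ± 0.16. ADORA2A, the adenosine receptor, fell by 1.23 and 1.11. Of the 302 genes lower under both drugs, 40 were called in the difference, 33 higher and 7 lower.

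Endoplasmic reticulum chaperones gave no single direction, with 8 of 22 higher and 6 lower in the difference (14.2% and 13.1% of all genes were). HSPA5, which encodes BiP, the master chaperone of this compartment, fell with both drugs. Its signals were 8.29, 8.22 and 8.25 with ONC201 and 9.49, 9.55 and 9.47 at 0 h, against 8.57 and 8.70 with rapamycin and 9.42 and 9.59 in its control. The drug arrays lay below both controls without overlap, with effects of -1.25 ± 0.08 and -0.87 ± 0.10. Their difference, -0.38, lost its call in 9 of the 10 fits that left out an array, all but that without untreated replicate 2. SDF2L1 and CALR, which encodes calreticulin, fell with ONC201 by 1.37 and 1.06, and their rapamycin effects were not called. EDEM1 and XBP1, of degradation and of the unfolded protein response, rose with ONC201 by 0.56 ± 0.06 and 0.47 ± 0.07 and fell with rapamycin by 0.63 and 0.25. The endoplasmic reticulum stress element, CCAAT and CCACG with 9 bases between them, was found, on either strand, in 6 of the 22 windows of these genes (27.3%), against 22 of 27305 in all (0.0806%). It is shown for HSPA5 in capitals, at chr9:125241364-125241433 on the minus strand of GRCh38.p14, starting 66 bases before the RefSeq start.
HSPA5: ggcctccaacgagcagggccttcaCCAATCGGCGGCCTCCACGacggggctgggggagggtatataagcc

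Several genes responded to ONC201 with no called rapamycin effect. CCPG1, a receptor for the autophagy of endoplasmic reticulum, had signals of 8.54, 8.76 and 8.66 with ONC201 and 5.89, 5.33 and 5.01 at 0 h, against 6.28 and 6.42 with rapamycin and 5.89 and 6.10 in its control. It was 9.47-fold higher with ONC201, and the difference was 2.89 ± 0.25 (log2 ± SE, adjusted p = 4.54e-07, limma). MAP1LC3B, the autophagosome marker LC3B, rose by 1.07, and the autophagy gene WIPI1 rose by 1.98 ± 0.18 with ONC201 and fell by 0.84 with rapamycin. LONP1, a protease of the mitochondrial matrix, rose by 0.95 ± 0.08 and fell with rapamycin by 0.35, while the transcript of CLPP had an ONC201 effect of -0.03 ± 0.09 and its difference of 0.34 was not called (adjusted p = 0.1, limma), but was at 0.42 without 0 h replicate 2. Cytochrome c, CYCS, fell with ONC201 by 0.81. A probe assigned to 18S ribosomal RNA, RNA18SN5, rose by 1.51 ± 0.10 with ONC201 and was at -0.11 ± 0.12 with rapamycin.

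Other genes were called with rapamycin and had no called ONC201 effect against 0 h. AK4, a mitochondrial adenylate kinase, had signals of 5.92 and 5.91 with rapamycin and 8.81 and 8.67 in its control, with 7.10, 6.82 and 6.74 under ONC201 and 7.30, 6.78 and 6.79 at 0 h. It fell 7.12-fold, and the ONC201 effect was -0.07 ± 0.14. CDKN1C, the inhibitor p57, was detected in untreated cells at 24 h alone, at least 4.50-fold above rapamycin. Against the untreated 24 h arrays, AK4 and CDKN1C were also lower with ONC201, with effects of -1.86 and -2.58 (log2), and PIM1 and NUAK2 higher, by 0.99 and 1.77. ABCG1, a cholesterol exporter, and SRXN1, a redox enzyme, fell with rapamycin by 1.81 and 1.21. PIM1, a kinase that promotes survival, rose 2.74-fold with rapamycin, with signals of 11.08 and 11.26, against 9.66 and 9.78 in its control. NUAK2, a kinase related to AMPK, rose by 1.37 ± 0.11. MYC, an activator of ribosome production, was not called in the difference (0.14 ± 0.11).

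Machinery lists had smaller shares called in the difference than all genes had (14.2% higher and 13.1% lower), with the 0 h control for ONC201. Of 51 cytosolic ribosomal protein genes, 2 were higher and 3 lower in the difference, with a median of 0.03. Of 61 nuclear genes of oxidative phosphorylation the counts were 3 and 5, and of 74 mitochondrial ribosomal protein genes 5 and 5. Within these, ONC201 lowered 18 oxidative phosphorylation and 28 mitochondrial ribosomal protein genes, where 17.0% of all genes fell with ONC201, and rapamycin lowered 7 and 16, where 13.6% of all genes fell with rapamycin. Of 42 nucleolar ribosome assembly genes, ONC201 lowered 31 and rapamycin 10, and 1 was higher and 4 lower in the difference.

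With the untreated 24 h arrays as control for both drugs, the difference of effects becomes ONC201 at 24 h minus rapamycin at 24 h, across the chips. It was then called for 4799 genes (51.0%), with 2756 higher (29.3%) and 2043 lower (21.7%), and the ONC201 effect against this control for 4847 (51.5%), with 2789 higher (29.6%) and 2058 lower (21.9%). Of the 2569 genes called with the 0 h control, 2153 kept their sign, 1639 were called the same way and 156 the opposite way. Of the 343 genes higher with ONC201 and lower with rapamycin, 231 kept a positive ONC201 effect, 172 of them called, and 65 were called lower. Of the 192 genes of the reverse class, 109 kept a negative ONC201 effect, 69 of them called, and 42 were called higher. Among the genes of shared direction, 236 of 314 were again called higher with ONC201 and 190 of 302 again lower. Changes of ONC201 alone were again called higher for 282 of 492 genes and lower for 213 of 485, and called the opposite way for 37 and 65. Of the genes changed by rapamycin alone, 164 of the 432 higher and 174 of the 387 lower still had no called ONC201 effect.

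The stress list kept a median difference of 2.37 under this control, with 17 members higher and 1, KLHL24, lower. Its median ONC201 effect was 0.81, against 1.28 with the 0 h control. Across the chips, 18 of the 20 members had a higher mean in untreated cells at 24 h than at 0 h, as had 4356 of all 9417 genes. TRIB3 (2.64), DDIT3 (2.15), ASNS (0.96) and ATF5 (0.43) kept positive ONC201 effects, and that of CHAC1 was -0.08. The amino acid enzymes, tRNA synthetases and B-cell antigens kept median differences of 1.36, 0.83 and -0.37. The medians of the heat shock and homing lists came to -0.01 and 0.04, against -0.39 and -0.67 with the 0 h control. The ONC201 effect of P4HA1 turned to -1.46, of BNIP3 to -1.11, of TUBB2B, a tubulin, to -1.36 and of KLF2 to 0.19. The difference of NUAK2 changed sign, to 0.40. For nucleolar genes 19 of 42 were then higher in the difference and 2 lower, where 29.3% and 21.7% of all genes were.

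**Figure D5:**
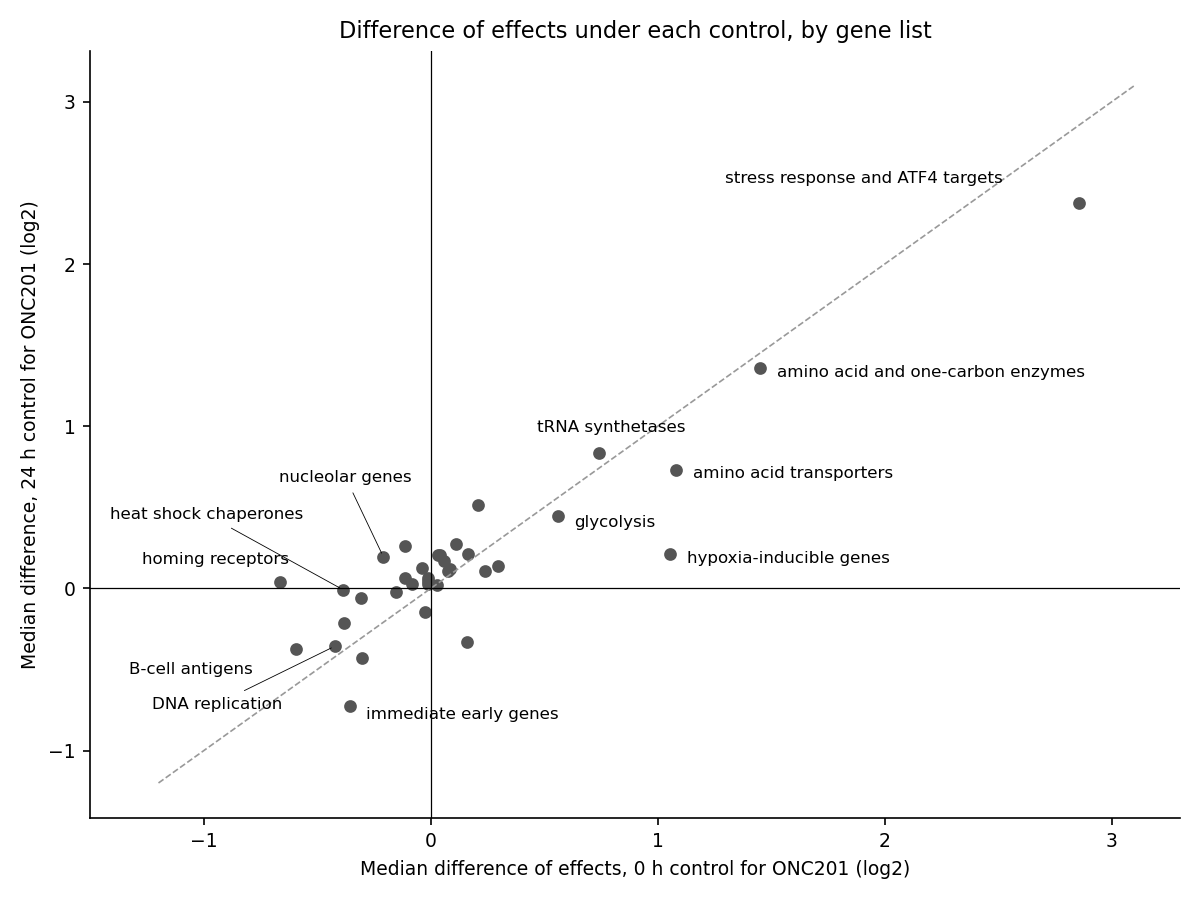
Median difference of effects over each gene list (1 point per list, log2) with the 0 h control for ONC201 on the horizontal axis and the untreated 24 h control on the vertical axis, with a dashed line of equality. The stress list (2.86 and 2.37) and the amino acid enzymes (1.45 and 1.36) lie near the line, and the hypoxia list (1.05 and 0.21) lies well below it.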

How the data were processed

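Gene expression was measured on Illumina HT-12 bead arrays. The submitters' processing notes name GenomeStudio. The deposited table used holds a linear signal intensity per probe without background correction and a detection p-value, per the file headers. How the authors normalized a second table is not given in the sources used here, and this table served as an alternative only. Its columns correlate with the same arrays at 0.994 to 0.996. A further table with background correction was not used.

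Signals of 28 arrays were background-corrected and quantile-normalized with neqc (limma 3.58.1, R 4.3.3, offset 16), with background inferred from the detection p-values. A linear model over the 20 JeKo-1 arrays (8 groups) was fitted with limma's lmFit and eBayes, and Benjamini-Hochberg adjustment ran over 17214 probes with a detection p under 0.01 on at least 2 of the 10 arrays. The script was tested on simulated data. Of 47231 probes, the platform table gives 1 gene symbol to 27004, several to 4 and none to 20223, and 26970 took a current symbol. Of the tested probes 5146 had no symbol. Each gene was given by its probe with the highest mean. Among genes called in the difference, 12 had another tested probe called the opposite way and 274 had a group with no detected array.

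The gene lists and their members were chosen with earlier results of these data known. Named genes were those with the largest differences of effects, the largest shared or opposite changes, the largest changes of one drug, the largest differences per list and a fixed panel (285 genes). The text leaves some out, and members named as exceptions, the synthetases of the promoter windows and several markers lie outside the rule and were chosen with their values known. Alternatives covered the background, normalization, filter, probe choice, arrays fitted, variance model, replicate numbers, control time and leaving out each array. The number of arrays limits the precision. Python 3.11.15 with matplotlib 3.10.9 drew the figures.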

Additional observations from a re-analysis of the deposited data

How the results depend on the processing

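By probe, the difference of effects was called for 4104, the ONC201 effect for 5393 and the rapamycin effect for 4117, with 978 shared, 813 opposite and 2893 changes of one drug. These counts stayed within 1.5 times of the stated value without background correction, with an offset of 50, with median centring, with the authors' normalized values (difference 3472), without the filter (3417) or with a stricter one, and with an intensity trend (4480). Fits on the 10 arrays alone moved the shared changes to 633, or to 648 with neqc also run on these arrays, and the other counts stayed within 1.5 times. With one probe per named gene, which tests fewer features, the ONC201 effect was called for 3545 and the rapamycin effect for 2720. Leaving out an array in turn gave 2523 to 4362 for the rapamycin effect, 605 to 978 for shared changes and 3050 to 4039 for the difference, with the lowest values without untreated replicate 1. Same-numbered ONC201 and 0 h arrays had deviations that correlated at -0.141 to -0.04, and arrays of different number at -0.097 to 0.139. These values cannot show whether same-numbered arrays were paired, and the labels do not say. A replicate block gave 3738 calls in the difference.

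With the untreated 24 h control on the other chip, the difference was called for 8784 probes and the ONC201 effect for 8686, with 1872 shared changes, 713 opposite and 5955 of one drug. Both effects then share the untreated arrays. Of 135 named genes, the difference turned sign under this control for ACACA (0.14), ALDH18A1 (0.53), CCR7 (0.62), CDKN1C (-0.36), FARSA (0.084), MTHFD1 (0.42), NUAK2 (0.40) and TNFRSF17 (-0.19), and for FOXO4 (-0.60), HARS1 (0.20), KLHL24 (-1.40), MSMO1 (-0.93) and VARS1 (0.28). The difference lost its call for CD38 (0.03), CTH (0.27), FADS1 (0.12), HSPA1B (-0.08), S1PR1 (-0.17), SOX11 (0.09) and SPRY2 (0.01). The cause was not tested. Under the other settings 0 of the 135 genes turned sign. A turn of sign was counted, here and above, only where the difference was called in either of the fits compared.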

Other observations

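Fatty acid enzymes parted within their own pathway. Of 11 measured, 4 were higher and 2 lower in the difference of effects, where 14.2% and 13.1% of all genes were. FASN, fatty acid synthase, and ACACA, the carboxylase that feeds it, fell with ONC201 by 1.18 and 0.53, and their rapamycin effects of -0.30 and 0.19 were not called. SREBF1, the transcription factor of lipid synthesis, fell with rapamycin by 0.95, and its ONC201 effect of -0.32 was not called. A second SREBF1 probe had effects of -0.83 with ONC201 and -0.60 with rapamycin, and its difference (-0.24) was not called. The difference of the brighter probe, 0.63, lost its call without 0 h replicate 2, ONC201 replicate 3, untreated replicate 2 or rapamycin replicate 2 (0.53 to 0.60). The desaturase FADS1 fell with rapamycin by 0.57 and was at -0.07 with ONC201. ACSS2, which makes acetyl-CoA from acetate, rose with ONC201 by 0.41 and fell with rapamycin by 0.73.

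Of 41 lysosome and autophagy genes, 12 were higher and 6 lower in the difference, where 14.2% and 13.1% of all genes were. With the untreated 24 h control 22 were higher and 3 lower, where 29.3% and 21.7% of all genes were. SGSH, a lysosomal sulfatase, changed by 0.66 with ONC201 and -0.80 with rapamycin, and GABARAPL1, an LC3 relative, by 0.56 and -0.44. Among immune genes, FCRL5, an Fc receptor-like protein of B cells, had signals of 7.02, 6.96 and 7.15 with ONC201 and 7.92, 7.96 and 7.78 at 0 h, against 9.07 and 8.96 with rapamycin and 8.08 and 8.10 in untreated cells at 24 h. Its ONC201 arrays were the lowest and its rapamycin arrays the highest of the 10. The difference of a second FCRL5 probe was not called (-0.28), with effects of -0.24 with ONC201 and 0.04 with rapamycin. TLR9, a receptor for bacterial DNA, fell with ONC201 by 1.44 and was detected there on 1 of 3 arrays, and its rapamycin effect was not called (-0.25 ± 0.23). HLA-DOB, a chaperone of antigen presentation, rose with rapamycin by 1.06 ± 0.13, and its ONC201 effect was not called (-0.16 ± 0.11). PAG1, a membrane adaptor that recruits the kinase CSK, had 7.946, 7.963 and 8.003 with ONC201 and 5.91, 5.78 and 5.77 at 0 h, against 5.61 and 5.97 with rapamycin and 6.98 and 6.71 in its control. These ONC201 arrays were the highest of the 10, also above the untreated 24 h arrays.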
